A study of Mus musculus with 10 samples.

Results

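The 10 genes Pdgfrb, Cspg4, Rgs5, Mcam, Abcc9, Kcnj8, Vtn, Anpep, Foxc1 and Foxf2 mark brain pericytes or regulate their development, and the binding sites of RBPJ around them were examined among 11094 RBPJ peaks. The peaks came from chromatin immunoprecipitation and sequencing (ChIP-seq) of untreated RD1 cells, labelled as mouse brain pericytes and grown in pericyte medium on collagen I. Its 10 samples form 5 groups of 2 replicates, for RBPJ, input chromatin, total H3 and the marks H3K4me3 and H3K4me1. The RBPJ samples are described here, and 8 others were not used. The methods of the study describe pericytes cultured from brains of mice homozygous for a floxed Rbpj allele and kept for many passages, and the labels do not say whether RD1 cells carry that allele or are a single clone.

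The lists deposited for both RBPJ replicates did not differ in any byte and were used as 1 list. Each peak had a chromosome, a start and an end, with no height or read count, so depth is unknown and no spread between replicates could be calculated. Every value is therefore a count or a distance without a test. Peak positions hold no expression values, so the label "pericyte" could not be checked against these marker genes, and a peak says only that RBPJ was called there.

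RBPJ is the DNA-binding factor of the Notch pathway. It represses its targets with corepressors in the absence of signal, and switches to activation when the cleaved intracellular domain of a Notch receptor joins it. It recognises a short core, TGGGAA, which is read as TTCCCA when it lies on the opposite strand. Pericytes sit on capillaries and depend on PDGF signals from the endothelium. They are told apart by a combination of surface proteins, channel subunits and transcription factors rather than by a single marker.

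A gene was given the peaks centred in its gene body or in its regulatory domain. The domain runs from 5 kb before to 1 kb after the transcription start site (TSS), called the basal domain, and extends to the basal domains of the neighbouring genes by at most 1 Mb. By this rule 5 of the 10 genes had at least 1 peak (Pdgfrb, Cspg4, Rgs5, Foxc1 and Foxf2), against 46.7% of 21938 protein-coding genes. The 5 genes with none were Mcam, Abcc9, Kcnj8, Vtn and Anpep. In the basal domain alone Foxc1 was the single gene with a peak centre, against 27.1% of all genes. Within the gene body 3 genes had one (Pdgfrb, Rgs5 and Foxc1), against 25.2%. The share of the 10 genes with a peak was thus near that of all genes.

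The 5 genes held 8 distinct peaks, 1 of them shared by Foxc1 and Foxf2. Summed over all 10 genes, including those without a peak, the peak density of each chromosome over the lengths of the rule gives 8.36. That sum counts a stretch shared between genes separately for each of them. Its counterpart is therefore the 9 assignments of a peak to a gene, not the 8 distinct peaks. Of the 8 peaks, 7 also lay in the domain of another gene and 4 were closer to the TSS of a gene outside the set. The rule gives a stretch between neighbouring basal domains to both genes, so such sharing follows largely from the rule. No share over all peaks is given for these counts. A single peak, at Foxc1, was centred within 1 kb of a TSS (12.5%, 95% exact binomial interval 0.316 to 52.7%), against 49.5% of all peaks. The central 200 bp of the 8 peaks had a median GC content of 45.8% and a median of 2 CpG dinucleotides, where all peaks had 55.5% and 6. The intervals treat the peaks as independent draws and cover counting error only.

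**Figure D1:**
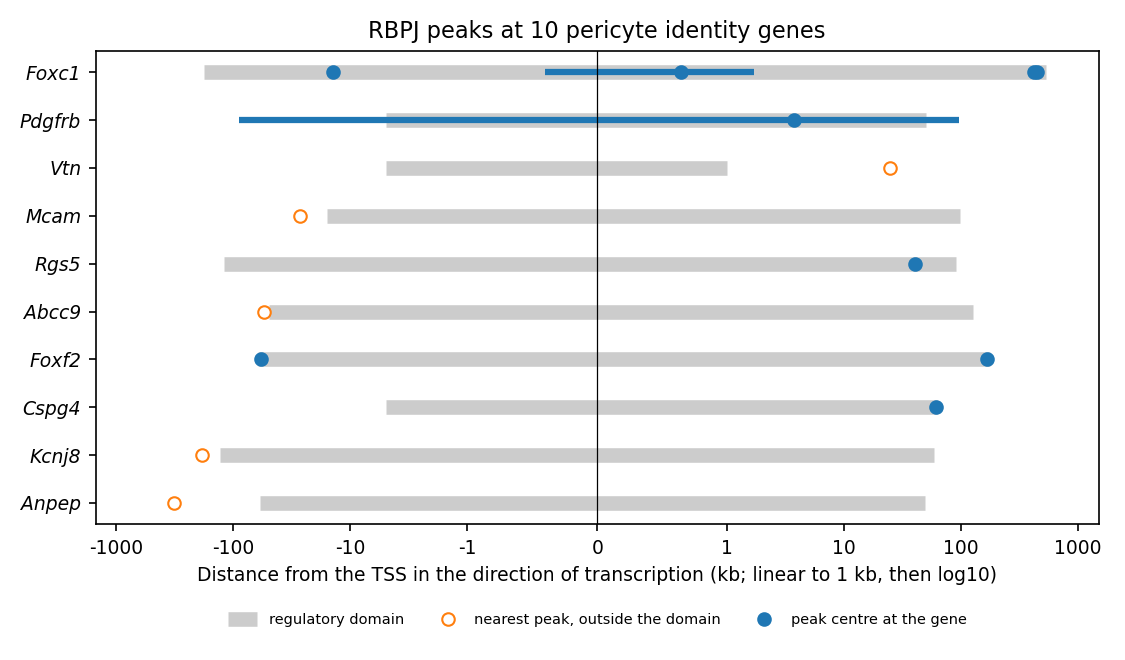
RBPJ peaks around the TSS of each gene (horizontal axis in kb, linear to 1 kb and log10 beyond), with the regulatory domain in grey, peaks at the gene in blue and, for genes with none, the nearest peak as an open circle. Foxc1 is the gene whose peak centre lies nearest to its TSS, and in Vtn, Mcam, Abcc9, Kcnj8 and Anpep the nearest peak lies beyond the domain.

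Foxc1 and Foxf2 are forkhead transcription factors that lie 181 kb apart on chromosome 13, and both are required for brain pericytes and an intact blood-brain barrier. Foxc1 had 4 peaks in a domain of 711 kb, the longest of the 10. The first, of 2092 bp, lay at chr13:31806233-31808324 and covered the promoter, from 400 bp before to 1691 bp after the TSS. Its centre fell in the coding exon, 645 bp past the TSS, and 21.9% of all genes had a closer peak. The peak held 2 RBPJ cores, at 982 and 623 bp from its centre on the upstream side. They lie at chr13:31806293-31806298, upstream of the gene, and at chr13:31806652-31806657, in the 5′ UTR, 21 bp after the TSS. They are printed as the cores of the only promoter in the set that a peak overlapped, apart from that of Pdgfrb, which lies inside a much wider interval, on the plus strand of GRCm38.p6 with the core in capitals.
Foxc1 upstream core: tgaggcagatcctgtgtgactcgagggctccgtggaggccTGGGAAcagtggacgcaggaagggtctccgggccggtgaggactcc
Foxc1 5′ UTR core: agttcagaagttTTCCCAatgcttccttaa

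The second Foxc1 peak, of 225 bp at chr13:31792580-31792804, lay 13.9 kb before the Foxc1 TSS and 167 kb past the Foxf2 TSS, in the stretch that the domains of both genes share. It held no core on either strand and no match to TGANTCA (the AP-1 motif), GGAATG (TEAD), TGTGGTT (RUNX) or GTAAACA (forkhead). The whole peak is printed because it is the only one given to 2 of the genes.
Foxc1 and Foxf2 shared peak: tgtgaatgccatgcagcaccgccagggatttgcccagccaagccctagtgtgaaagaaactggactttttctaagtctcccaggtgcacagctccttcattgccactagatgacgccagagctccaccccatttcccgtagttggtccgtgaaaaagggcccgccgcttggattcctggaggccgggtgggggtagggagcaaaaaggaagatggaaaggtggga

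The other 2 Foxc1 peaks lay 416 and 445 kb past the TSS in introns of Gmds, which encodes a GDP-mannose dehydratase, and both also lay in the Gmds domain. The nearer one, of 463 bp at chr13:32222587-32223049, held no core. The farther one, of 1555 bp at chr13:32251193-32252747, held 2 cores near its ends, at 723 bp on the lower side and 654 bp on the higher side of the centre, and 2 TGANTCA matches. These cores are shown because they are the only ones at a distal Foxc1 peak.
Gmds intron, lower core: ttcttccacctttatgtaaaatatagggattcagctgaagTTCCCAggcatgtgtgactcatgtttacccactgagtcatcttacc
Gmds intron, higher core: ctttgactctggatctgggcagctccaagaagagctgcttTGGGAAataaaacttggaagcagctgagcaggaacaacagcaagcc

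Foxf2 had the shared peak and 1 other, of 492 bp at chr13:31567719-31568210. It lay 57.9 kb before the Foxf2 TSS and 8.63 kb from the start of A530084C06Rik, the neighbouring gene, whose domain also holds it. It had 1 core, 187 bp from its centre, and 3 TGANTCA matches, of which 1 was in the central 200 bp. Among all peaks, 30.7% held TGANTCA anywhere. The core (chr13:31568108-31568193) and the stretch with the 3 TGANTCA matches (chr13:31567787-31567928, matches in capitals) are printed because they lie in the only Foxf2 peak that Foxc1 does not share.
Foxf2 distal core: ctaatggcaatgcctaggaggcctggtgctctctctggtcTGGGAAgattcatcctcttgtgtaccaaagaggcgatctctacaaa
Foxf2 distal TGANTCA stretch: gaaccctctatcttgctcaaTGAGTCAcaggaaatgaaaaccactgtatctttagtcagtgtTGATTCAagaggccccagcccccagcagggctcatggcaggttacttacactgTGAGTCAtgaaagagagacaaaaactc

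Rgs5 encodes a GTPase-activating protein that damps signals of heterotrimeric G proteins, and is among the genes most typical of pericytes. Its single peak was 226 bp wide, at chr1:169695413-169695638, in the 3′ UTR 40024 bp past the TSS, and ended 175 bp before the end of the gene. Only 6.65% of all peaks were narrower. The domain of Rgs4, a paralog on the other side, holds the same peak, but the Rgs5 TSS was the nearest one. The peak held no RBPJ core. It held 1 GGAATG match on the minus strand, at chr1:169695546-169695551, given here in capitals because no other searched motif was present. GGAATG occurred in 39.4% of all peaks.
Rgs5 3′ UTR: atgcttgccagaCATTCCaggacacggagt

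Cspg4 encodes the NG2 proteoglycan of the pericyte surface. Its single peak, of 4010 bp at chr9:56924527-56928536, was centred 61.5 kb past the TSS in a coding exon of Snx33, a sorting nexin gene. The centre was only 1840 bp from the Snx33 TSS, which the peak covers. The peak centre lay 839 bp inside the Cspg4 domain, the smallest margin of the 9 assignments of a peak to a gene. The peak held 4 cores, all in an intron of Snx33 at the lower end of the peak, at 1902, 1695, 1510 and 1248 bp from the centre. The first pair lay on the plus strand and the second on the minus strand. They are printed as the largest number of cores in a peak under 10 kb at these genes, at chr9:56924586-56924671, chr9:56924793-56924878, chr9:56924978-56925063 and chr9:56925268-56925297.
Snx33 intron, core 1: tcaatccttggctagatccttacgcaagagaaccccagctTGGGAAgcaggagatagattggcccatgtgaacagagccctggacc
Snx33 intron, core 2: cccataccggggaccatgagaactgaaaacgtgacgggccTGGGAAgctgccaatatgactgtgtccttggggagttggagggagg
Snx33 intron, core 3: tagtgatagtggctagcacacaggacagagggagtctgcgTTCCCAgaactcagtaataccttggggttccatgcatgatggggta
Snx33 intron, core 4: ggctctcccataTTCCCAgggaccaggaca

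None of the 8 peaks held a core in its central 200 bp (95% exact interval up to 36.9%), against 25.8% of all peaks. Among the 5605 peaks centred over 1 kb from a TSS, 35.2% held one there. Over the whole peak 5 of 8 held at least 1 (62.5%), against 64.9%. Site numbers matched the median of peaks within a factor of 1.2 in width at Foxf2 (1) and both of the wide Foxc1 peaks (2 each). The Cspg4 peak, with 4, was below the median of 5. The 3 peaks without a core, at Rgs5, at Foxc1 with Foxf2, and in the Gmds intron, were at most 463 bp wide, and among peaks of like width between 50.9 and 51.6% held one. No pair of cores faced each other at a gap of 0 to 30 bp in the peaks under 10 kb. A peak without these letters is not shown to lack binding.

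**Figure D2:**
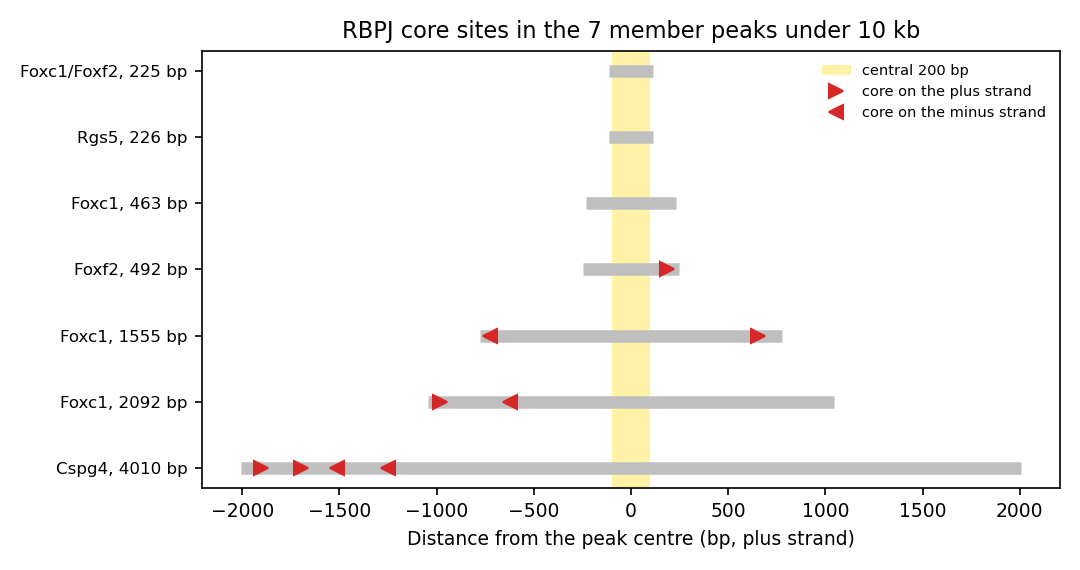
RBPJ core sites (triangles, pointing right on the plus strand and left on the minus strand) in the 7 peaks under 10 kb, by distance from the peak centre in bp, with the peak in grey and the central 200 bp in yellow. The 9 sites lie outside the yellow band, the nearest of them 187 bp from the centre.

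The genes without a peak encode an adhesion molecule, channel subunits, a matrix protein and a peptidase. Mcam, the adhesion molecule CD146, had its nearest peak 27.1 kb before the TSS at chr9:44107045-44107625. That peak lay 90 bp from the TSS of C1qtnf5 and 11.2 kb beyond the Mcam domain, and held 4 cores, 1 of them in the central 200 bp. Mcam lay in a peak-rich neighbourhood, with 13 peaks within 250 kb of its TSS, where 4.29% of all genes had more and the median gene had 3.

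Abcc9 and Kcnj8 encode SUR2 and Kir6.1, the subunits of the ATP-sensitive potassium channel of pericytes, and lie next to each other on chromosome 6. Both had the same nearest peak, at chr6:142756626-142757442, 348 bp past the TSS of Cmas. It lay 54.7 kb before the Abcc9 TSS and 185 kb before the Kcnj8 TSS. The peak missed the Abcc9 domain by 5.35 kb, the smallest such distance of the 5 genes, and the Kcnj8 domain by 55.7 kb. It held no core. It was the only peak within 250 kb of either TSS, and 19.5% of all genes had none that close.

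Vtn encodes vitronectin, a matrix glycoprotein secreted by brain pericytes. Its domain was 6001 bp long, the shortest the rule allows, since Sarm1 starts 1.34 kb and Sebox 4.36 kb away. The nearest peak, of 426 bp at chr11:78523339-78523764, lay 24.5 kb past the TSS in the 3′ UTR of Tnfaip1 and held 2 cores. Within 250 kb of the Vtn TSS were 9 peaks, and 11.6% of all genes had more. Vtn thus had no peak by the rule in a region with more peaks than most.

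Anpep encodes aminopeptidase N, or CD13, a peptidase of the pericyte surface. Its nearest peak lay 321 kb before the TSS, at chr7:80181709-80181944, 5.02 kb from the TSS of Sema4b, and 83.7% of all genes had a closer one. No peak lay within 250 kb. Chromosome 7 as a whole had few peaks, with 1.03 per Mb against 4.96 on chromosome 1, and 10.7% of its genes had a peak. Among the genes of chromosome 7 alone, 53.4% had a closer peak than Anpep.

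**Figure D3:**
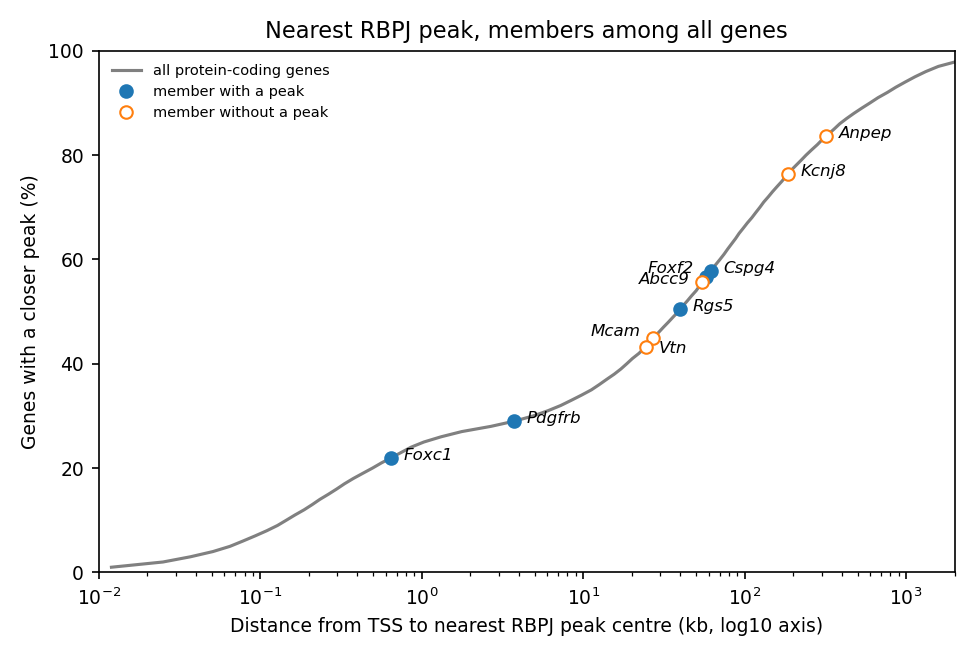
Distance from the TSS to the nearest RBPJ peak centre (kb, log10 axis) against the percentage of all 21938 genes with a closer peak, with all genes as a line and the 10 genes as points, filled where they have a peak. The genes spread from 0.645 kb at Foxc1 to 321 kb at Anpep, around the middle of the curve.

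The median distance to the nearest peak was 47.4 kb over the 10 genes and 38.9 kb over all genes. The share of genes with a peak moved with the length of the domain. The share was 38.4% in the class of shortest domains, which holds Vtn, and 60.5% in the class of longest ones, which holds Foxc1. It was lowest in the second class, at 33.0%. The median domain of the 10 genes was 145 kb, against 89.6 kb. Summed over the 10 genes, the shares of their classes give 5.00 genes with a peak, beside the 5 counted.

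**Figure D4:**
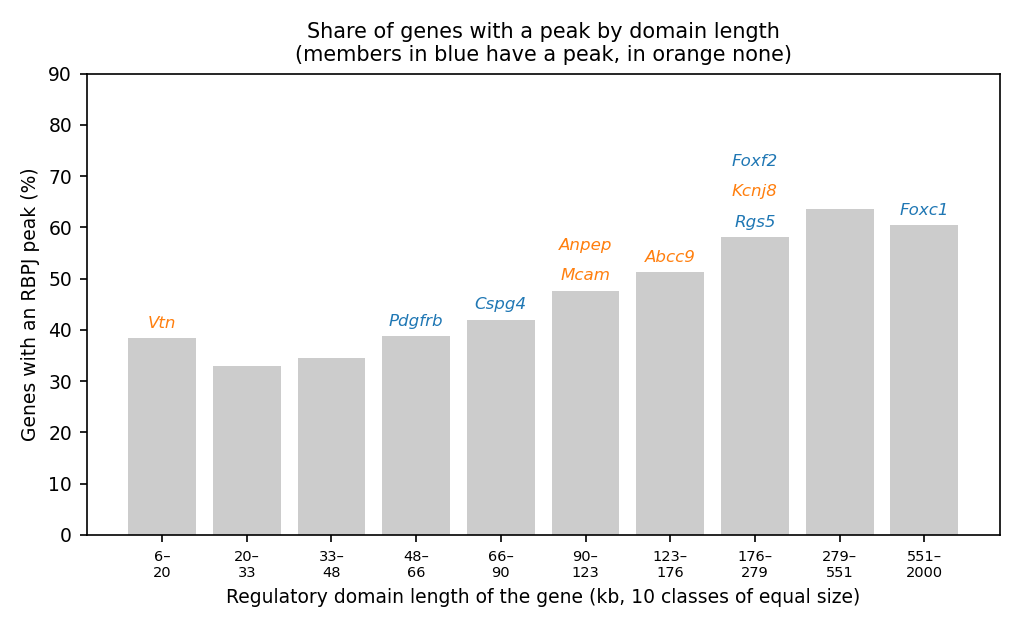
Share of all protein-coding genes with an RBPJ peak (bars, %) in 10 classes of regulatory domain length (kb), with each of the 10 genes written above its class in blue where it has a peak and in orange where it has none. The share is lowest in the second class, at 33.0%, rises to 63.5% in the ninth class and is 60.5% in the tenth. Genes with and without a peak occur at short and at long domains.

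The promoters of the genes were also searched, as 300-base stretches from 250 bases before to 50 after the RefSeq start (RefSeq, GRCm38.p6). Of the 10 genes 9 matched, all but Pdgfrb, and the Anpep entry starts at another position than its GENCODE 5′ end. The entries of Mcam, Cspg4, Abcc9, Vtn and Foxc1 also start at other positions, by smaller distances. The core occurred in 4 of the 9, namely Foxc1 (1), Abcc9 (1), Kcnj8 (1) and Vtn (3), and in 25.6% of 32851 promoters. A peak overlapped the Foxc1 promoter and none of the other 8. The cores of Abcc9 and Vtn upstream of the GENCODE TSS (chr6:142702490-142702495 and chr11:78498884-78498889) lay 177 and 205 bp before it. The Kcnj8 core (chr6:142571609-142571614) and the other Vtn cores (chr11:78499131-78499136 and chr11:78499158-78499163) lay in the 5′ UTR. They are printed, on the plus strand, as cores at the start of a pericyte gene where no RBPJ peak was called.
Abcc9 core: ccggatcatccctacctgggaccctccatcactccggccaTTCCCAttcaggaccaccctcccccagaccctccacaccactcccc
Kcnj8 core: gagccagctcggTTCCCAgtagcccggatt
Vtn upstream core: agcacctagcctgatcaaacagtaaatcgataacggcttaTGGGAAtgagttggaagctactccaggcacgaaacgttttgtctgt
Vtn 5′ UTR core 1: agggttttctgtTTCCCAgctctcctgggg
Vtn 5′ UTR core 2: gggctggggttcTGGGAAtgtgaccctttg

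The other gene lists were counted by the same rule. Of 10 other pericyte markers 6 had a peak. A peak was centred within 5 kb of the TSS at 6605 of 21938 protein-coding genes and at 3 of these 10 markers. These were Notch3, the Notch receptor of mural cells, at 170 bp with 5 peaks by the rule, Ndufa4l2, a mitochondrial subunit paralog, at 1536 bp, and Cd248, the surface glycoprotein endosialin, at 4020 bp. Of 8 paralogs of the genes 6 had a peak, with Pdgfra at 2108 bp, Alcam at 1927 bp and Foxc2 at 4012 bp. Genes with a peak numbered 6 of 10 smooth muscle markers, 7 of 10 endothelial markers, 7 of 10 fibroblast markers, 6 of 10 astrocyte markers and 5 of 10 microglia markers. A peak centred within 5 kb of the TSS occurred at 2 smooth muscle, 2 endothelial, 3 fibroblast, 2 astrocyte and 1 microglia markers. The median domain differed among the lists, from 52.4 kb in the other pericyte markers to 394 kb in the astrocyte markers. The endothelial, astrocyte and microglia markers mark other cells of the brain. Their counts of genes with a peak were at least as high as that of the 10 genes.

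A separate account is needed for Pdgfrb, the receptor for PDGF-B that draws pericytes to vessels and the marker most often used to target them. Its single entry was an interval of 185896 bp at chr18:60955939-61141834, the widest of all 11094 and 3.23 times as wide as the next, of 57541 bp. The interval started 89.2 kb before the Pdgfrb TSS, spanned the whole gene and ended 56.8 kb after it. The nominal centre, 3736 bp past the TSS in an intron, is the midpoint of that span. Pdgfrb thus counted as a gene with a peak without any bound position being resolved in it.

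The interval also covered all of Slc6a7, Cdx1 and Csf1r, 51.5% of Camk2a and 23.1% of Hmgxb3. Csf1r, the receptor kinase of microglia, is counted among the 5 microglia markers with a peak through this interval. The interval made up 1.44% of all bases in peaks. It held 237 cores, or 1.27 per kb, where chromosome 18 as a whole had 0.926 per kb. Stretches of equal length on the lower and the higher side had 1.32 and 1.07 per kb, so the core density of the interval lay between those of its flanks. No core lay within 1 kb of the Pdgfrb TSS, the nearest was 1134 bp away, and 65 lay in the gene body. Input and histone samples at this locus were not analysed here, and the part of mapping or input signal in the interval was not tested. Without the widest 1% of peaks, those over 6397 bp, Pdgfrb had no peak, and 4 genes and 7 peaks remained.

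**Figure D5:**
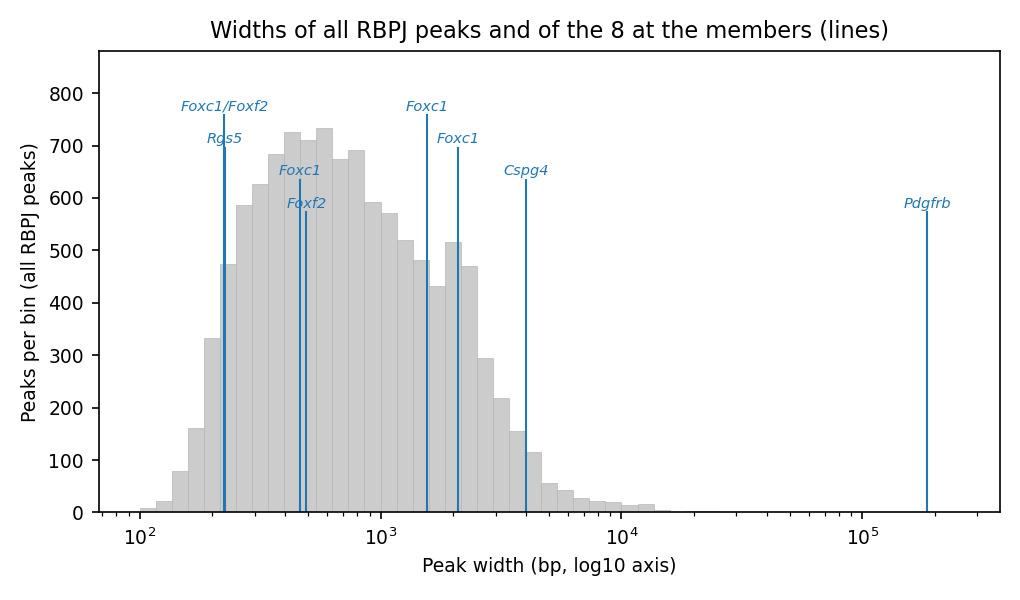
Widths of all 11094 RBPJ peaks (grey histogram, bp on a log10 axis) and of the 8 peaks at the genes (blue lines, named by gene). The Pdgfrb interval of 185896 bp stands far to the right of the other 7, which run from 225 to 4010 bp.

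The median width of the 8 peaks was 1023.5 bp and that of all peaks 690 bp. The other 7 peaks had a median of 492 bp, so the Pdgfrb interval and the small number of peaks carry that difference.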

How the data were processed

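RBPJ ChIP-seq peaks of RD1 cells (2 samples, grouped by title) were analysed. Per the methods, the authors mapped reads with bowtie to GRCm38, dropped duplicates and ran MACS2 and PeakRanger on each replicate. Calls less than 2 kb apart were joined, regions supported by 3 or more of the calls were retained, and blacklisted ones were discarded. The deposited columns hold start and end coordinates (bp) of this consensus, without score or count. Merging widens intervals, so a centre need not be the bound site.

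Starts were read as 1-based. Genes were 21938 protein-coding genes of GENCODE M21, and sequences came from GRCm38.p6, whose chromosome names and lengths fitted the list (0 peaks past a chromosome end). Distance to a TSS within 1 kb used 54327 transcript starts. Motifs were searched on both strands. TGANTCA is its own reverse complement and was counted once per position. Intervals are exact (Clopper-Pearson). Domain assignment and motif search were tested on simulated data. Every one of the 10 genes is named with each peak. Genes of the other pericyte marker and paralog lists are named where a peak is centred within 5 kb of the TSS. The remaining lists are given as counts, apart from genes that neighbour one of the 10. Members and lists were chosen with earlier results of these data known. Alternatives changed the assignment rule, extension, minimum width, window and motif. The tools were samtools 1.23.1 and pysam 0.24.0 for sequences, matplotlib 3.10.9 for plots, and Python 3.11.15 with pandas 2.3.3, numpy 2.4.6 and scipy 1.17.1.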

Additional observations from a re-analysis of the deposited data

How the results depend on the processing

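The number of genes with a peak was 5 and of their peaks 8. With the basal domain alone 1 gene (Foxc1) and 1 peak were left, with the gene body alone 3 genes and 3 peaks, with each peak given to the nearest TSS 3 genes (Foxc1, Pdgfrb and Rgs5) and 4 peaks, and with peaks of at least 500 bp 3 genes (Cspg4, Foxc1 and Pdgfrb) and 4 peaks. Fewer positions or peaks qualify under each of these rules by construction. Assignment by an overlap of 1 bp gave 5 genes and 8 peaks, an extension of at most 100 kb gave 5 and 6, and omission of the widest 1% of peaks gave 4 and 7. The share of peaks centred near a TSS, 12.5% within 1 kb, was 0% within 500 bp and 37.5% within 5 kb. It was 25% among peaks of at least 500 bp, 14.3% without the widest 1% and 12.5% with gene 5′ ends only. The share of peaks with a core was 0% in the central 200 and 100 bp and 62.5% over whole peaks. Leaving out replicate 1 or replicate 2 gave 5 genes and 8 peaks, because the lists are identical, and says nothing about spread. No paired analysis was possible because no result comes from a test and the list holds no value per replicate. The share near a TSS is a full count over only 8 peaks. Its interval of 0.316 to 52.7% treats them as independent draws, although the peaks at Foxc1 and Foxf2 lie in neighbouring domains. Without heights, strong and weak binding cannot be told apart.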

Other observations

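The Pdgfrb interval had a close neighbour on its lower side, an interval of 12599 bp that ended 1313 bp before it, although peaks within 2 kb were to be merged. On the higher side the next interval lay 34.5 kb away and was 1016 bp wide. Within 500 kb, 17 intervals lay on the lower side and 8 on the higher side.

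Foxc2, the paralog of Foxc1, had a single peak of 977 bp centred 4012 bp past its TSS with 5 cores, none of them in the central 200 bp. Ndufa4l2, which is typical of pericytes, was covered by an interval of 10981 bp with 15 cores, 1 of them in the central 200 bp. These peaks were chosen for description after their values were seen.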
